A study of Mus musculus with 6 samples.

Results

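NRF2 is a transcription factor, and the peaks described here are the windows in which its ChIP-seq signal fell inside the first intron of a gene and outside annotated repeats. A peak was counted when its deposited annotation was an intron numbered 1 and its detailed annotation named no repeat. There were 1452 such peaks among 16057 peaks of 4 lists. They comprised 387 of 4600 peaks in GCN2 KO cells without leucine, 265 of 3141 in GCN2 KO cells with complete medium, 571 of 5980 in WT cells without leucine and 229 of 2336 in WT cells with complete medium. The cells were mouse embryonic fibroblasts of strain 129S6/SvEvTac, either GCN2-/- or wild type, and were held for 24 h in DMEM that was complete or had no leucine. Chromatin was precipitated with the NRF2 antibody ab62352 (Abcam), and each of the 4 conditions gave 1 library. The other 2 of the 6 samples were inputs from complete medium, 1 per genotype, against which both media of that genotype were called. The labels do not give the deleted part of the GCN2 gene or whether a genotype was 1 clone, and a peak list measures neither loss of GCN2 nor fibroblast markers.

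NRF2, encoded by Nfe2l2, is held at low level by KEAP1-directed degradation and accumulates under oxidative or electrophilic stress. It pairs with small Maf proteins on the antioxidant response element (ARE) and activates genes for glutathione and thioredoxin systems, peroxide removal and heme handling, while BACH1 competes for the same element as a repressor. GCN2 is the kinase that senses uncharged tRNA during amino acid shortage. First introns lie directly downstream of the transcription start site (TSS) and often hold enhancers and secondary start sites.

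The peak windows are in mm10 coordinates, and the start windows of genes from RefSeq (GRCm38.p6, the assembly of mm10) show the DNA around annotated start sites. A start window runs from 250 bases before a TSS to 50 after it. It was reached by 4 first-intron peak windows in GCN2 KO cells without leucine, 2 in GCN2 KO cells with complete medium, 13 in WT cells without leucine and 2 in WT cells with complete medium, 21 in all, of which 7 overlapped by at least 150 bases. Most of the sequence under the peaks is therefore outside these windows and was not searched. The sequences below are shown because Acyp2 is the only gene whose start window was reached by a peak found in all 4 lists and that held an ARE core, TGACNNNGC, and because Tbcel is the only one in which the core lay inside the peak window. Capitals mark the cores and the AP-1 site TGACTCA, which is also the first part of the ARE form TGACTCAGC. Both motifs were searched on both strands, and TGAGTCA is the same AP-1 site read on the other strand. The Acyp2 window is chr11:30649347-30649646 on the minus strand, and its last 54 bases lay under the peak of WT cells without leucine. The Tbcel window is chr9:42461379-42461678 on the minus strand, around another start than the one used by the peak annotation, and its last 273 bases lay under a peak.
Acyp2: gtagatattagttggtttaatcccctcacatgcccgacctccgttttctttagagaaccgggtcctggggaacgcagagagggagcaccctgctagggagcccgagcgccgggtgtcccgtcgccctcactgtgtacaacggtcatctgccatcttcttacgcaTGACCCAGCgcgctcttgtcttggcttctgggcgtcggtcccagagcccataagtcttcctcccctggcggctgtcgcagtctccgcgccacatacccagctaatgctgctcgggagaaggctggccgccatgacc
Tbcel: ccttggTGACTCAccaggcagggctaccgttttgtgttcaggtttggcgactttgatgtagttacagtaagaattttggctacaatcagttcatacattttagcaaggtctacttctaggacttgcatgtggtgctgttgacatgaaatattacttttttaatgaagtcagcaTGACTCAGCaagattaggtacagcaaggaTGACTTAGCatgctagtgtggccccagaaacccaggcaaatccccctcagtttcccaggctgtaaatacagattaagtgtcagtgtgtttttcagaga

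The Tbcel peak, at chr9:42461351-42461651 and 10725 bp from the TSS that the authors' annotation gave, was found only in WT cells without leucine and ranked 4126 of 5980. Both of its ARE cores lay under the peak, so sites with this motif occurred among low-ranking peaks of a single list too. Across start windows, the core was held by 4071 of 32851 RefSeq promoters (12.4%), 150 of 1099 promoters of genes nearest to a first-intron peak (13.6%) and 9 of 44 promoters of genes whose site was in all 4 lists (20.5%). The AP-1 site was held by 5.20% of all promoters, 4.73% of those of first-intron peak genes and 4.55% of those of the genes in all 4 lists. These shares describe promoters and not the peak windows, no interval is given for them, and their differences were not tested. The 44 promoters belonged to 31 genes, so the last share of each motif rests on few genes. The stretches around the core in 5 of the 9 promoters show how the variable bases differ between genes that carried a site in every condition.
Ikbkg: ggggcaactgTGACTCAGCagaccagtcc
Acyp2: ttcttacgcaTGACCCAGCgcgctcttgt
Sod1: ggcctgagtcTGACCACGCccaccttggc
Mafg: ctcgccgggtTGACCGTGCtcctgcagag
Brk1: tgaggaagagTGACTGCGCaggcgccgcg

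In this order the stretches are at chrX:74424564-74424592 on the minus strand, chr11:30649464-30649492 on the minus strand, chr16:90220696-90220724 on the minus strand, chr11:120633751-120633779 on the plus strand and chr6:113604740-113604768 on the minus strand. The core was centred at -34 from the TSS in Ikbkg, -82 in Acyp2, -52 in Sod1, -218 in Mafg and -18 in Brk1. Of these 5, Ikbkg alone carried the AP-1 site within the core.

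First-intron peaks made up a similar share of each list. The share was 8.41% in GCN2 KO cells without leucine (95% interval 7.63 to 9.25), 8.44% in GCN2 KO cells with complete medium (7.49 to 9.46), 9.55% in WT cells without leucine (8.82 to 10.3) and 9.80% in WT cells with complete medium (8.63 to 11.1). These are exact Clopper-Pearson intervals, which cover counting error only, and since each condition has 1 library, differences between lists have no replicate check. The intervals of the GCN2 KO and WT lists overlapped within each medium. The authors' nearest-gene annotation assigned the peaks to 357 genes in GCN2 KO cells without leucine, 246 in GCN2 KO cells with complete medium, 529 in WT cells without leucine and 223 in WT cells with complete medium. Over the 4 lists this made 1045 genes, of which 36 had a first-intron peak in every list. The gene that held the intron was also the nearest gene for 357 of 385, 245 of 264, 509 of 565 and 208 of 227 peaks with a matched transcript, in the same order of lists. Further first-intron peaks lay in repeats and were not counted, numbering 146 in GCN2 KO cells without leucine, 101 in GCN2 KO cells with complete medium, 166 in WT cells without leucine and 67 in WT cells with complete medium.

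First-intron peaks lay nearer to a start site than peaks in later introns, as follows from where the first intron lies in a gene, but most were not at the promoter. Their median absolute distance to the nearest TSS was 9616 bp in GCN2 KO cells without leucine, 12436 bp in GCN2 KO cells with complete medium, 8577 bp in WT cells without leucine and 10028 bp in WT cells with complete medium. Peaks in later introns outside repeats had medians of 31694, 28599, 25552 and 31246 bp in the same order. Within 1 kb of a TSS lay 50, 26, 78 and 28 first-intron peaks of the 4 lists, and over 50 kb away lay 59, 44, 50 and 27. A minority, 33, 15, 61 and 19 peaks, lay upstream of the nearest annotated TSS. The nearest genes of first-intron peaks had a median length of 53.2 kb (1045 genes). The median was 32.2 kb for the nearest genes of later-intron peaks (2547 genes) and 17.1 kb for all 21896 protein-coding genes of the table. The nearest gene is the one with the nearest TSS and need not hold the intron, so these lengths do not compare the genes that hold the peaks.

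**Figure D1:**
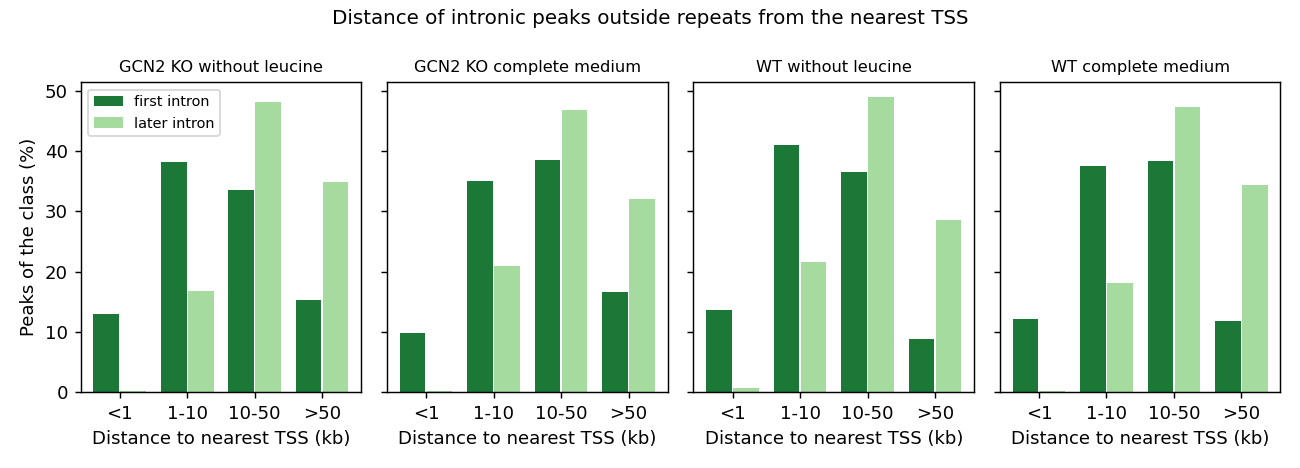
Share of first-intron (dark) and later-intron (light) peaks outside repeats, in percent of each class, by absolute distance to the nearest TSS in kb, for each of the 4 lists. First-intron peaks fell mostly between 1 and 50 kb in every list, for example 148 of 387 at 1 to 10 kb and 130 at 10 to 50 kb in GCN2 KO cells without leucine.

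GC content hardly differed between the lists. The median GC of the first-intron windows was 52.8% in GCN2 KO cells without leucine, 53.2% in GCN2 KO cells with complete medium, 52.8% in WT cells without leucine and 52.5% in WT cells with complete medium. Later-intron windows had medians of 52.5%, 52.5%, 52.5% and 51.5%. The mean difference, first minus later, was 0.581 ± 0.318 percentage points (SD over 4 lists), positive in 4 of 4, with p = 0.13 in a two-sided exact sign-flip permutation test, the smallest p that 4 lists allow (adjusted p = 0.167 over 4 measures). First-intron peaks annotated to CpG islands were few, 19, 11, 35 and 10 in the order above, with median GC of 69.4%, 67.4%, 66.4% and 68.8% and median distances to the TSS of 389, 700, 444 and 596 bp. Among them 6, 5, 9 and 7 recurred in another list (31.6%, 45.5%, 25.7% and 70.0%), against 16.0%, 22.0%, 13.8% and 28.8% of first-intron peaks outside CpG islands. The intervals of the island shares were wide, for example 12.6 to 56.6 in GCN2 KO cells without leucine.

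Recurrence, meaning an overlap of at least 1 bp with a peak of any other list, was found for a minority of first-intron peaks. It was seen for 65 of 387 peaks of GCN2 KO cells without leucine (16.8%, 13.2 to 20.9), against 14.0% of all peaks of that list. In GCN2 KO cells with complete medium 61 of 265 recurred (23.0%, 18.1 to 28.6), against 18.4% of all peaks. WT cells without leucine had 83 of 571 (14.5%, 11.7 to 17.7), against 12.6%, and WT cells with complete medium had 70 of 229 (30.6%, 24.7 to 37.0), against 27.0%. An overlap with all 3 other lists was found for 35 first-intron peaks (9.04%, 6.38 to 12.4, against 5.52% of all peaks), 35 (13.2%, 9.37 to 17.9, against 8.05%), 36 (6.30%, 4.45 to 8.62, against 4.25%) and 37 (16.2%, 11.6 to 21.6, against 10.9%) in the same order of lists. Here the share of all peaks lay below each interval. These counts are largely of the same sites, seen once in each list, so the 4 intervals are not independent of each other. The shares with any other list were close to those of their lists, and the list share lay inside each interval. With every list shortened to its 2336 highest-scoring peaks, the shares were 31.3% in GCN2 KO cells without leucine, 26.9% in GCN2 KO cells with complete medium, 32.1% in WT cells without leucine and 28.4% in WT cells with complete medium. The order of the 2 media within each genotype was then the reverse of that in the full lists. Shortening changed list length and score cut together, and their parts were not tested. The share of all peaks at this length is not given here. In the full lists the later-intron shares were 13.4%, 15%, 10.3% and 23.2%, while intergenic peaks outside repeats had 13.9%, 21.1%, 13.9% and 28.8%. Promoter peaks outside repeats had 28.2%, 26.9%, 19.3% and 44.4%, and first-intron peaks in repeats 21.9%, 25.7%, 18.1% and 38.8%, above the first-intron peaks outside repeats in each list. First minus later averaged 5.74 ± 2.27 percentage points (SD over 4 lists) and was positive in 4 of 4 lists, with p = 0.13 in the exact sign-flip permutation test and an adjusted p of 0.167, so the design could not pass 0.05. The 4 differences are not independent, since recurrence is mutual between lists.

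**Figure D2:**
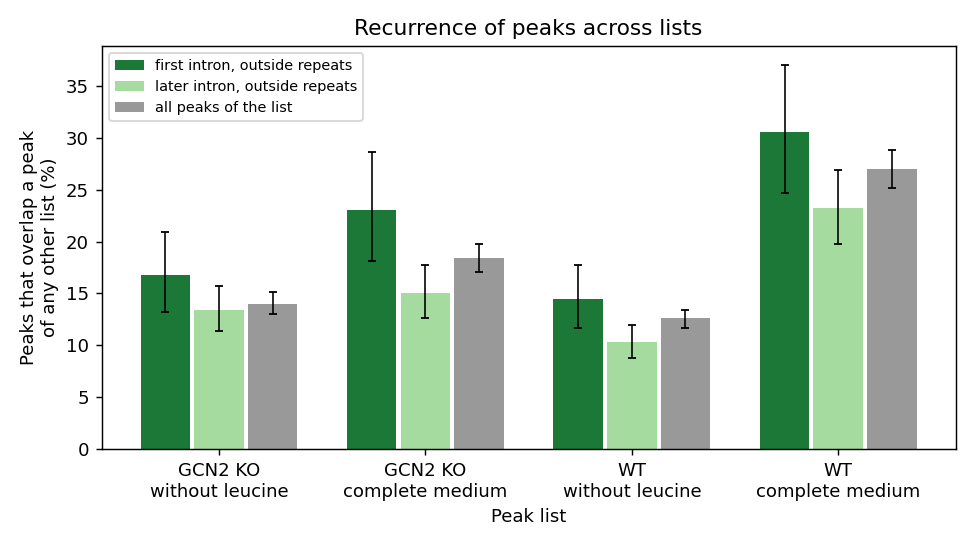
Percent of peaks that overlapped a peak of any other list, for first-intron peaks outside repeats, later-intron peaks outside repeats and all peaks, by list, with bars from 0 and 95% exact intervals. First-intron bars stand above later-intron bars in each list (16.8% against 13.4% in GCN2 KO cells without leucine, 30.6% against 23.2% in WT cells with complete medium). The intervals of the classes overlap in all lists but GCN2 KO with complete medium, where first introns stand at 23.0% (18.1 to 28.6) and later introns at 15% (12.6 to 17.7).

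Recurrence was concentrated in the peaks with the highest scores. Among first-intron peaks in the highest 10% of their list's scores, 42 of 47 recurred in GCN2 KO cells without leucine (89.4%), 38 of 43 in GCN2 KO cells with complete medium (88.4%), 52 of 62 in WT cells without leucine (83.9%) and 31 of 33 in WT cells with complete medium (93.9%). Among all peaks of the lists the shares were 79.1%, 85.8%, 78.3% and 95.7% in the same order, near those of the first-intron peaks. In the lowest 25% of scores the shares of first-intron peaks were 4.93%, 6.78%, 1.12% and 3.39%, against 3.90%, 4.91%, 1.94% and 7.07% of all peaks. Tied scores stayed together, so such bins held unequal numbers of peaks. In GCN2 KO cells without leucine the lowest 25% held 1511 peaks and the third 25% held 744. Later-intron peaks in the highest 10% recurred at 81.6%, 90.9%, 78.4% and 100%, so that in this bin neither class was above the other in every list. In the highest 25% of scores the first-intron shares were 56.2%, 61.5%, 47.3% and 72.2%, against 43.9%, 47.8%, 39.0% and 71.8% for later introns, higher in 4 of 4 lists and not tested. All peaks of the lists recurred at 43.4%, 51.5%, 40.3% and 71.7% in this bin. In WT cells with complete medium the classes were nearly equal, at 72.2% and 71.8%. Of the first-intron peaks in GCN2 KO cells, 12.1% without leucine and 16.2% in complete medium lay in the highest 10% of scores. In WT cells the shares were 10.9% without leucine and 14.4% in complete medium. Of the later-intron peaks, 8.63%, 6.89%, 8.49% and 7.91% did so in the same order of lists, and of all peaks 10.1%, 9.87%, 9.77% and 9.97%. First minus later averaged 5.43 ± 3.13 percentage points (SD over 4 lists, positive in 4 of 4, exact sign-flip permutation p = 0.13, adjusted p = 0.167). The median score percentile of first-intron peaks, where 100 is the highest score of the list, was 44.7, 48.3, 49.6 and 55.8 in the 4 lists, against 44.7, 44.2, 49.6 and 49.5 for later introns. The medians were thus equal in both lists without leucine and 4.15 and 6.31 points higher in the GCN2 KO and WT complete-medium lists (exact sign-flip permutation p = 0.5, adjusted p = 0.5). In both lists without leucine the medians of the classes fell on the same tied score, 30, so they cannot separate the classes there. The mean difference was 2.62 points in the full lists, 6.13 in the higher-scoring 50% of each list and 5.37 at equal list length, positive in 4 of 4 lists in both of these alternatives, which were added after the data were seen.

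**Figure D3:**
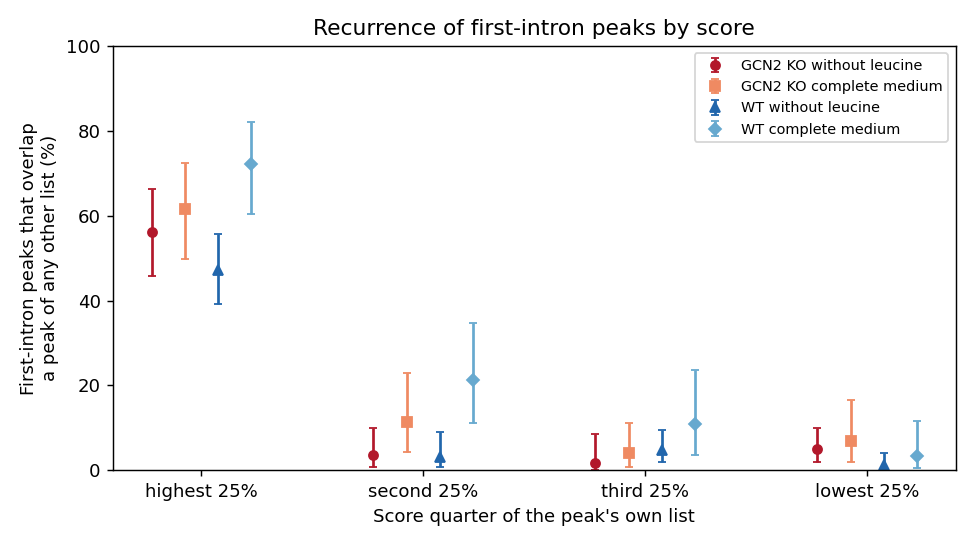
Percent of first-intron peaks outside repeats that overlapped a peak of any other list, by steps of 25% of the list's own scores, with 95% exact intervals, for the 4 lists. Tied scores stayed together, so the steps hold unequal numbers of peaks. The highest 25% stands at 56.2%, 61.5%, 47.3% and 72.2% from left to right, and the lowest 25% at 1.12% to 6.78%. Among all peaks, not drawn, the highest 25% stood at 43.4%, 51.5%, 40.3% and 71.7% and the lowest 25% at 1.94% to 7.07%.

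Merging overlapping peaks of all lists gave 1279 regions with a first-intron peak, of which 1173 (91.7%) were in 1 list, 49 in 2 lists, 18 in 3 and 39 in all 4. The single-list share was close to the 93.5% of all regions. The share in all 4 lists was 3.05% (2.18 to 4.15), against 1.78% of all 14390 regions. In 34 of the 39 every list's peak was a first-intron peak outside repeats. In the others some windows touched a repeat or, at Sfi1, a promoter. The single-list regions numbered 322 in GCN2 KO cells without leucine, 204 in GCN2 KO cells with complete medium, 488 in WT cells without leucine and 159 in WT cells with complete medium. As shares of the 1279 regions these were 25.2%, 15.9%, 38.2% and 12.4%. They were near the 27.5%, 17.8%, 36.3% and 11.9% of all regions. Regions in all 4 lists had a median of mean score percentiles of 95.1, a median distance to the TSS of 7634 bp and a median GC of 53.8%. Those in 1 list had 40.6, 10270 bp and 52.8%. The mean score percentile of the 39 sites ran from 71.7 at Sort1, a sorting receptor gene, to 99.8 at Brd2.

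The sites in all 4 lists included genes of heme transport, peroxide and superoxide removal, detoxification and the NRF2 partner MAFG. Ranks are given within each list as GCN2 KO without leucine, GCN2 KO complete medium, WT without leucine and WT complete medium. Ranks in lists of different length do not measure how much NRF2 was bound.

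Slc48a1, which encodes the heme transporter HRG1, had a site in intron 1 of 2, 2521 bp from the TSS in GCN2 KO cells without leucine, with the GCN2 KO windows at chr15:97786736-97787036 without leucine and chr15:97786700-97787000 in complete medium. It ranked 40, 29, 8 and 8. The site was thus within the best 40 peaks of each list and ranked higher in both WT lists. Mafg, whose small Maf protein pairs with NRF2, had a site 3332 bp from the TSS, at chr11:120630065-120630365 in GCN2 KO cells without leucine, that ranked 187, 48, 84 and 55. A second Mafg site lay in the CpG island at the start of the same intron, at chr11:120632918-120633218 in GCN2 KO cells without leucine, 479 bp from the TSS with a GC of 76.7%. It was in both GCN2 KO lists, at ranks 560 without leucine and 2096 in complete medium, and in neither WT list.

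Prdx6, a peroxiredoxin that reduces peroxides and phospholipid hydroperoxides, had a site at chr1:161248674-161248974 in GCN2 KO cells without leucine, 2342 bp into the gene. It ranked 27, 23, 96 and 210, ahead in both GCN2 KO lists. Sod1, the cytosolic superoxide dismutase, had a CpG-rich window at 259 to 328 bp from the TSS with a GC of 76.7% to 77.7%. The window was at chr16:90220851-90221151 in GCN2 KO cells without leucine, and the ranks were 162, 945, 308 and 832, so both lists without leucine ranked it above both complete-medium lists. Ephx1, microsomal epoxide hydrolase, had a site in intron 1 of 8, 7597 bp from the TSS, at chr1:181009748-181010048 in GCN2 KO cells without leucine. Its ranks were 288, 2470, 223 and 314, and the outlying rank belonged to GCN2 KO cells with complete medium, where the score percentile was 20.3 against 86.2 to 96.2 elsewhere. Aldh2, the mitochondrial aldehyde dehydrogenase, ranked 422, 156, 156 and 64 at 9616 bp from the TSS.

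Brd2, which encodes a bromodomain reader of acetylated histones, had the best mean score percentile, 99.8. Its window, chr17:34120888-34121188 in GCN2 KO cells without leucine, lay in a CpG island 709 bp from the TSS with a GC of 70.1%, and it ranked 9, 9, 4 and 6. D630024D03Rik, a noncoding gene, ranked 3, 6, 9 and 26 at 20904 bp from its TSS. Mocs1, which acts in molybdenum cofactor synthesis, ranked 34, 102, 55 and 33. Pvt1, a long noncoding RNA gene next to Myc, ranked 40, 67, 76 and 130 at a site 41585 bp from the TSS. Galnt10, a mucin-type glycosyltransferase gene, ranked 19, 50, 273 and 129 at a site 62111 bp from the TSS, and was thus higher in both GCN2 KO lists. The semaphorin gene Sema3e ranked 111, 198, 32 and 199, and the calmodulin-dependent kinase gene Camk1d ranked 70, 73, 91 and 42. In both lists without leucine the Camk1d ranks, 70 and 91, belong to peaks in repeats.

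Nearest-gene assignment names 1 gene per window, and at 2 of the sites in all 4 lists another NRF2 target lay within 50 kb. The Ikbkg site, chrX:74425278-74425578 in GCN2 KO cells without leucine, was 816 bp into Ikbkg, which encodes the NF-kB regulator NEMO, and it also lay within the annotated span of G6pdx, the first enzyme of the pentose phosphate pathway, at chrX:74409483-74428880. It ranked 40, 124, 182 and 52. The site at 1700028I16Rik, chr10:82814122-82814422 in GCN2 KO cells with complete medium, was centred 19679 bp from the nearer end of Txnrd1, the gene of thioredoxin reductase, and ranked 60, 18, 120 and 221. The other sites in all 4 lists included Psmd5, a proteasome assembly factor (ranks 152, 214, 257 and 111), the tumour necrosis factor receptor gene Tnfrsf1a (202, 190, 189 and 111), the nuclear receptor gene Ppard (379, 746, 123 and 467), and the formin genes Inf2 (235, 88, 64 and 1592) and Fmnl2 (1805, 102, 412 and 249). Acyp2, an acylphosphatase gene, ranked 907, 164, 340 and 150 at 146 to 293 bp from the TSS, and Brk1, a subunit gene of the actin-nucleating WAVE complex, ranked 276, 137, 463 and 1419.

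**Figure D4:**
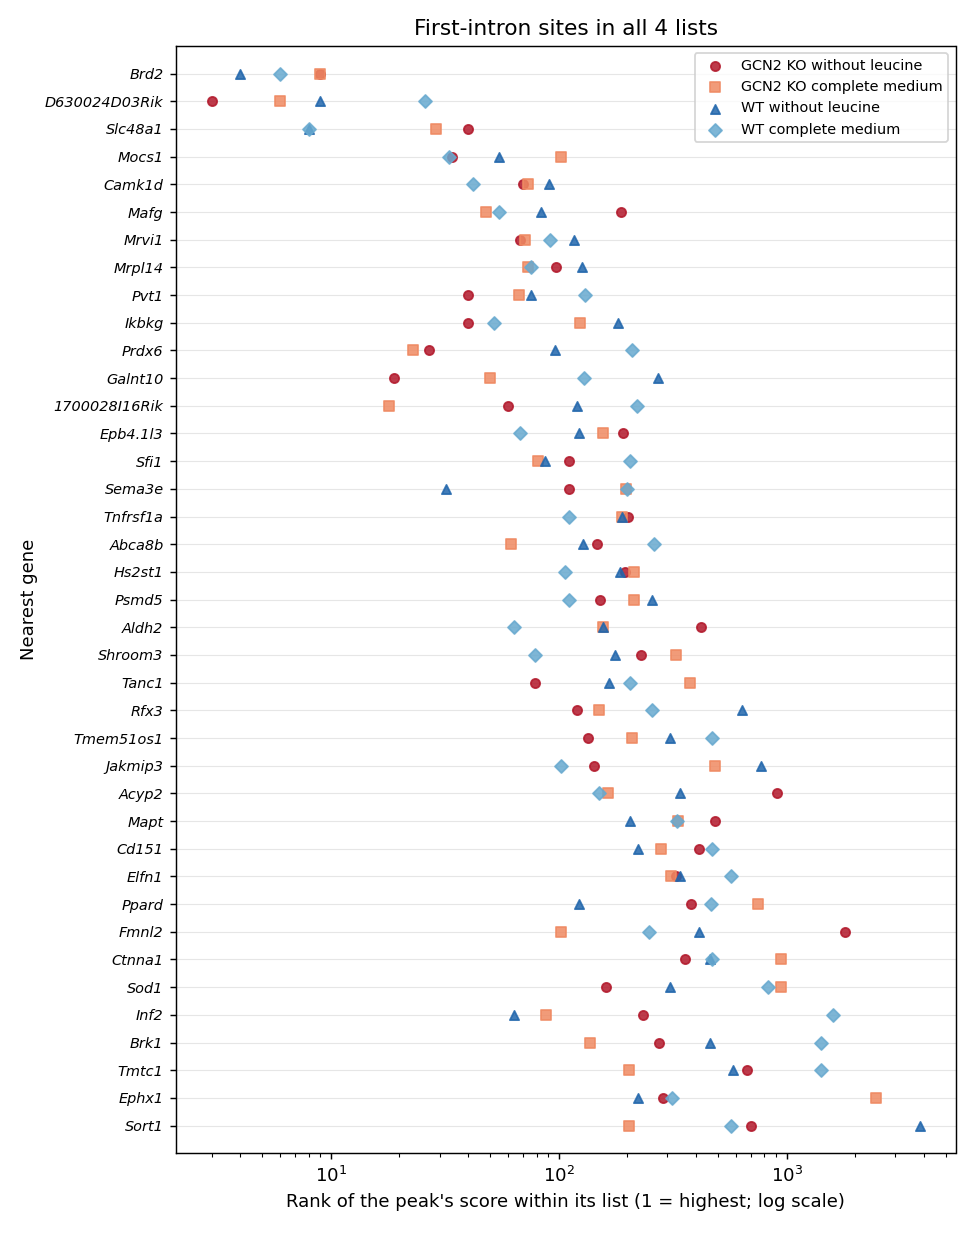
Rank of the site's score within each list (log scale, 1 is the highest) for the 39 regions in all 4 lists that hold a first-intron peak outside repeats, in order of mean score percentile from top to bottom, with 1 symbol per list. Brd2, D630024D03Rik and Slc48a1 stand at ranks of 40 or better in every list, while Ephx1 and Sort1 each have 1 list far to the right (rank 2470 in GCN2 KO cells with complete medium and rank 3854 in WT cells without leucine).

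Leucine withdrawal in GCN2 KO cells was compared first. Of the 387 first-intron peaks without leucine, 49 overlapped a peak of complete medium (12.7%, 9.52 to 16.4), against 9.33% of all peaks of that list. Of the 265 in complete medium, 47 overlapped a peak without leucine (17.7%, 13.3 to 22.9), against 13.7% of all peaks. The highest-scoring peaks without an overlap in complete medium were at Cdc42bpa, a kinase gene (rank 99), the adaptor gene Shc3 (rank 152), 4930568G15Rik (rank 170), Fam69a (rank 202) and Disp1, which acts in Hedgehog release (rank 302). In complete medium the highest-scoring peaks without an overlap in the list without leucine were at Sfi1 (rank 81), the elongation factor gene Eef1a1 (rank 124), Gm5441 (rank 178), and Eml1 and Mir7243 (both rank 263). The Sfi1 entry is a matter of window placement, since the list without leucine held a promoter peak of Sfi1 at chr11:3193347-3193647, beside chr11:3193034-3193334 in complete medium.

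In WT cells, 60 of the 571 first-intron peaks without leucine overlapped a peak of complete medium (10.5%, 8.11 to 13.3), against 8.96% of all peaks. In the other direction 62 of 229 overlapped (27.1%, 21.4 to 33.3), against 22.9%. The highest-scoring peaks without leucine and without an overlap in complete medium were at Hspb8, a small heat shock protein gene (rank 158), the cytoskeletal linker gene Macf1 (rank 208), Pgbd5 (rank 246), Neurl1a (rank 292) and Tex2 (rank 308). Those of complete medium were at 4933417E11Rik (rank 145), Bach1 (rank 170), Fndc3b (rank 221), Fam69a (rank 224) and the glutamate receptor gene Grm4 (rank 249). The 5 named on each side ranked lower than the best shared sites.

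GCN2 KO and WT cells were compared within each medium. Without leucine, 54 of 387 first-intron peaks of GCN2 KO cells overlapped a WT peak (14.0%, 10.7 to 17.8), against 10.4% of all peaks, and 56 of 571 WT peaks overlapped a GCN2 KO peak (9.81%, 7.49 to 12.5), against 7.96%. In complete medium 44 of 265 GCN2 KO peaks overlapped a WT peak (16.6%, 12.3 to 21.6), against 11.6% of all peaks, and 45 of 229 WT peaks overlapped a GCN2 KO peak (19.7%, 14.7 to 25.4), against 15.6%. Without leucine the highest-scoring GCN2 KO peaks with no WT overlap were at Zfp957 (rank 93), Fam69a (rank 202), the scaffold gene Dlg5 (rank 328), the taurine transporter gene Slc6a6 (rank 348) and Trio (rank 373). The WT peaks with no GCN2 KO overlap were led by Mvp (rank 95), Eef1a1 (rank 110), 9130015L21Rik (rank 139), Macf1 (rank 208) and Bach1 (rank 222). In complete medium the GCN2 KO peaks were led by Esd (rank 170), Gm5441 (rank 178), Zfyve20 (rank 190), Hspb8 (rank 250) and Eml1 (rank 263). The WT peaks were led by 9130015L21Rik (rank 76), the imprinted gene Mest (rank 125), the endocytosis gene Pacsin2 (rank 135), Mvp (rank 144) and 4933417E11Rik (rank 145).

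In each of these comparisons the shared first-intron peaks had the higher median score, although some peaks without an overlap also ranked near the top, such as Zfp957 and Mvp. The median score percentile of shared peaks lay between 88.7 and 96.2 over the 8 directions, and that of peaks without an overlap between 36.3 and 49.6. The comparisons share lists, so they are not independent of each other. A peak that is missing from a list fell short of the authors' threshold there, at a read depth that the files do not give.

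Few first-intron regions were in exactly the pair of lists that a treatment or genotype defines. Both lists without leucine alone shared 11 regions, both GCN2 KO lists 7, both WT lists 18 and both complete-medium lists 2, while the mixed pairs shared 4 (GCN2 KO without leucine with WT complete medium) and 7 (GCN2 KO complete medium with WT without leucine). As shares of the 1279 regions these were 0.860%, 0.547%, 1.41% and 0.156% for the 4 pairs with a common medium or genotype, against 0.674%, 0.674%, 1.04% and 0.160% of all regions, near the background. The mixed pairs, at 0.313% and 0.547%, compared with 0.306% and 0.459% of all regions. The pair without leucine was led by Shc3 (ranks 152 in GCN2 KO and 396 in WT), the neuronal guidance gene Nav2 (106 and 881), Pomgnt2, which acts in dystroglycan glycosylation (567 and 463), the phosphatase gene Ppp1cc (670 and 340) and the urea transporter gene Slc14a1 (567 and 764). The GCN2 KO pair was led by Dnajb14 (591 without leucine and 290 in complete medium), Shc4 (660 and 435), Igsf21 (1222 and 1318), the second Mafg site given above and the Rac activator gene Tiam1 (2742 and 945). In the WT pair, 9130015L21Rik (139 without leucine and 76 in complete medium), Mvp (95 and 144), Mest (382 and 125), the glucocorticoid receptor co-chaperone gene Fkbp5 (770 and 213) and the ubiquitin-conjugating enzyme gene Cdc34 (770 and 263) came first. The complete-medium pair consisted of Bach1 and Mir1962. Both lists of the pair held a first-intron peak outside repeats in 10 of the 11, 4 of the 7, 16 of the 18 and 1 of the 2 regions. In GCN2 KO cells without leucine the ranks given for Nav2, Slc14a1 and Tiam1 belong to peaks in repeats. The same holds in GCN2 KO cells with complete medium for the rank of Dnajb14 and for the Mir1962 peak.

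The NRF2 response genes with a first-intron peak are given beside the share of all protein-coding genes that had one. Of 58 NRF2 target genes, 5 had one in GCN2 KO cells without leucine (8.62%), against 1.46% of all 21896 protein-coding genes, and 5 in GCN2 KO cells with complete medium (8.62%), against 1.03%. WT cells without leucine had 11 (19%), against 2.19%, and WT cells with complete medium had 7 (12.1%), against 0.891%. Over any list the count was 12 of 58 (20.7%), against 4.32%. These targets were listed with NRF2 binding in mind, so the counts are a description. Slc48a1, Mafg, Prdx6 and Ephx1 had a peak in every list. Esd, an esterase that acts in formaldehyde removal, ranked 567 in GCN2 KO cells without leucine, 170 in GCN2 KO cells with complete medium and 506 in WT cells without leucine, at chr14:74733386-74733686 in the first of these, and had no first-intron peak in WT cells with complete medium. Mvp, the major vault protein gene, was at chr7:127008717-127009017 in WT cells without leucine and had peaks in both WT lists only. Cat, Txnrd1, Abcc3 and Abcc4, which encode catalase, thioredoxin reductase and drug and conjugate exporters, had a first-intron peak in WT cells without leucine only, at ranks 1524, 2077, 5397 and 3854, and the exporter gene Abcc1 in WT cells with complete medium only, at rank 592.

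Nfe2l2, the gene of NRF2 itself, had a peak in its CpG island in both WT lists, at chr2:75703877-75704177 without leucine (614 bp from the TSS, rank 2077) and chr2:75703797-75704097 in complete medium (694 bp, rank 314). Neither GCN2 KO list held a first-intron peak of Nfe2l2. Bach1, the repressor that heme inactivates, had 2 sites in its first intron. One was in both complete-medium lists, at chr16:87699971-87700271 in GCN2 KO cells (rank 1290) and chr16:87699902-87700202 in WT cells (rank 170), 1167 and 1098 bp from the TSS. The other, 14190 bp from the TSS in GCN2 KO cells, was in GCN2 KO cells with complete medium (rank 2017), WT cells without leucine (rank 222) and WT cells with complete medium (rank 279). The list of GCN2 KO cells without leucine held no first-intron peak of Bach1.

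**Figure D5:**
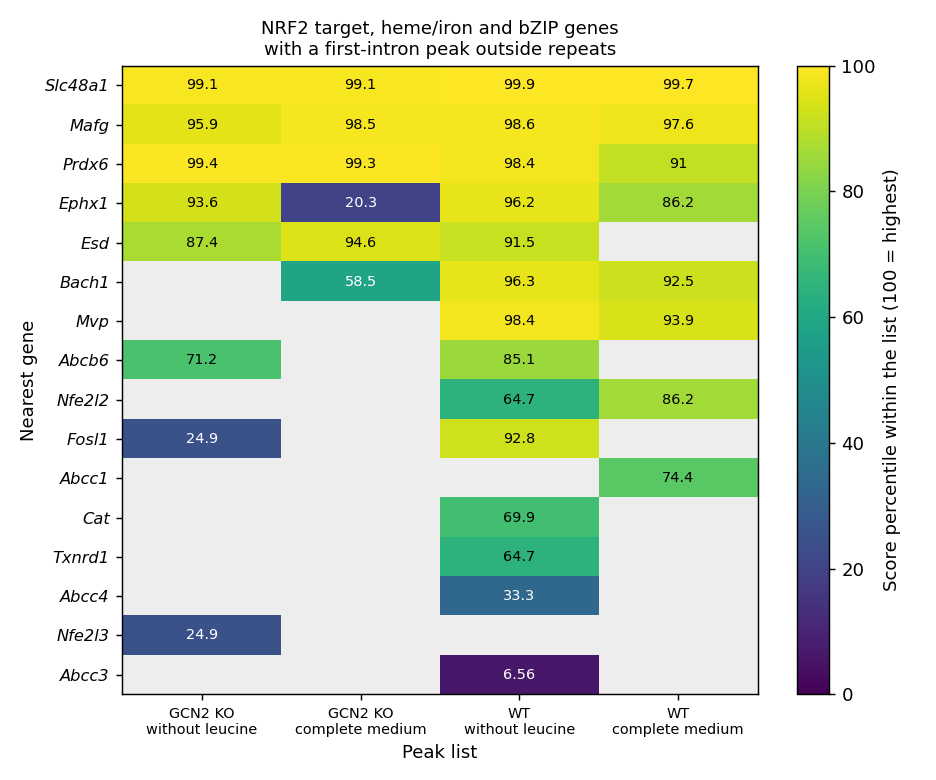
Score percentile within each list (100 is the highest score) of the best first-intron peak outside repeats for NRF2 target, heme and iron, and CNC, small Maf and AP-1 family (bZIP) genes, with grey where the list held none. Slc48a1, Mafg and Prdx6 stand at 91.0 or higher in all 4 lists, while Ephx1 stands at 20.3 in GCN2 KO cells with complete medium and at 86.2 to 96.2 elsewhere.

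The heme and iron list had 2, 2, 3 and 2 genes of 39 in the order above and 3 over any list, namely Slc48a1, Bach1 and Abcb6. The shares were 5.13%, 5.13%, 7.69% and 5.13%, against 1.46%, 1.03%, 2.19% and 0.891% of protein-coding genes. Over any list the share was 7.69%, against 4.32% of protein-coding genes, and rests on 3 genes. Abcb6, a porphyrin transporter gene, had a site in both lists without leucine, at chr1:75179308-75179608 in GCN2 KO cells (rank 1222) and chr1:75179268-75179568 in WT cells (rank 881). The list of CNC, small Maf and AP-1 family genes had 3, 2, 4 and 3 of 25, namely Mafg, Bach1, Nfe2l2, Fosl1 and Nfe2l3. Fosl1, an AP-1 subunit gene, had a peak in both lists without leucine at ranks 3090 in GCN2 KO and 428 in WT cells, and Nfe2l3, a relative of Nfe2l2, had one in GCN2 KO cells without leucine at rank 3090. For the 43 genes of the ATF4 and amino acid response, which act downstream of GCN2, the counts were 0, 0, 1 and 1, with Cars, a cysteinyl-tRNA synthetase gene, in WT cells without leucine (rank 1524) and Slc3a2, an amino acid transporter subunit gene, in WT cells with complete medium (rank 874). Over any list the share of these genes was 4.65%, near the 4.32% of protein-coding genes.

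The lists of other programs and cell types are given beside the 4.32% of protein-coding genes with a first-intron peak in any list. Autophagy and lysosome genes had 1, 0, 1 and 0 of 41, namely Atp6v1h, a proton pump subunit gene, in GCN2 KO cells without leucine and Tfeb, a lysosomal gene regulator, in WT cells without leucine. Fibroblast genes had 0, 0, 1 and 1 of 30 (Twist2, in the WT lists at different sites), macrophage genes had 1, 0, 0 and 0 of 20 (Clec4f), and neuron and hepatocyte genes had 1, 3, 1 and 0 of 20 (Rbfox3, Slc17a7 and Snap25). Over any list the shares were 4.88% for autophagy and lysosome, 3.33% for fibroblast, 1 of 20 for macrophage and 15% for neuron and hepatocyte genes. The neuron and hepatocyte share was 15% in GCN2 KO cells with complete medium alone, against 1.03% of protein-coding genes, and it rests on 3 genes. Presence of a peak does not measure expression, so these counts do not check the cell type.

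Several first-intron regions could lie in 1 gene. Of the 1045 genes, 43 were nearest to 3 or more regions, 143 regions in all, and in 34 of the 43 every region was in 1 list. These genes had a median length of 142 kb. Dpp6, a potassium channel subunit gene of neurons, had 6 regions between 1688 and 68461 bp from the TSS, none in more than 2 lists. Genes with 4 regions included Cacng2, a subunit gene of calcium channels and glutamate receptors (1846 to 60994 bp), and Galnt10 (14597 to 62111 bp), 1 of whose regions was in all 4 lists.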

How the data were processed

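NRF2 ChIP-seq was sequenced as single 50 bp reads in 4 libraries, per the labels' protocols. BWA 0.7.12, MACS2 2.1.0, HOMER 4.7 and mm10 are named in the submitters' processing notes. Each library was called by the authors against the complete-medium input of its genotype and annotated in 300 bp windows, per the file headers. The score of a peak is a whole number of at least 13 that the authors deposited, and the caller column behind it is not stated in the labels or headers. GC content was deposited by the authors as a fraction of the window and is given here in percent. Distance to the TSS is as deposited. The depth per sample is unknown, so no precision follows from it.

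Scores served only for ranks and percentiles within a list, where ties shared a rank. Overlap was at least 1 bp. Intervals printed with shares are 95% intervals by the exact Clopper-Pearson method, which cover counting error alone. First-intron and later-intron peaks were compared over the 4 lists with an exact two-sided sign-flip permutation test, 4 measures, Benjamini-Hochberg adjusted. The lists are 1 library each, so the 4 comparisons of media and genotypes carry no test. Overlap code was checked on simulated intervals.

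The first-intron peaks, the 8 gene lists (276 entries, all matched to the GRCm38.p6 gene table) and the tests were chosen with earlier results of these data known. Genes were named by rule: the 10 highest-scoring peaks per list, up to 15 regions with a first-intron peak in all 4 lists by mean percentile, the 5 highest-scoring unshared peaks per direction, listed genes, up to 5 genes with 3 or more regions, and the 5 best regions per pair of lists. Further sites in all 4 lists and both genes whose start-window sequence is printed were named after their values were seen, as were Dpp6, Cacng2 and the single members of short counts. A motif search in the peak windows was planned and not run, since genome sequence was not used here, and RefSeq promoter windows were described instead. That description and the measure of peaks in the highest 10% of scores were added after the data were seen. Python 3.11.15, pandas 2.3.3, NumPy 2.4.6, SciPy 1.17.1 and matplotlib 3.10.9 were used.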

Additional observations from a re-analysis of the deposited data

Results flagged for a closer look

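Some contrasts ran in opposite directions in their 2 settings. These differences were not tested, and each rests on 1 library per condition.

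The number of first-intron peaks, GCN2 KO minus WT, was -184 without leucine (387 in GCN2 KO and 571 in WT cells) and 36.0 in complete medium (265 in GCN2 KO and 229 in WT cells). The lists as a whole differed in the same directions, with 4600 GCN2 KO and 5980 WT peaks without leucine and 3141 GCN2 KO and 2336 WT peaks in complete medium. The part of read depth in this was not tested.

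The share of first-intron peaks that recurred in any other list, GCN2 KO minus WT, was 2.26 percentage points without leucine (16.8% in GCN2 KO and 14.5% in WT cells) and -7.55 points in complete medium (23.0% in GCN2 KO and 30.6% in WT cells). In both media the longer list had the smaller share. With lists of equal length the shares were 31.3% in GCN2 KO and 32.1% in WT cells without leucine, and 26.9% in GCN2 KO and 28.4% in WT cells in complete medium.

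Median GC of the windows, without leucine minus complete medium, was -0.332 percentage points in GCN2 KO cells (52.8% without leucine and 53.2% in complete medium) and 0.332 points in WT cells (52.8% without leucine and 52.5% in complete medium).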

How the results depend on the processing

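Of 90 values recomputed under an alternative, 68 stayed within the 95% interval of the reported value or kept their direction, 22 moved outside it and 0 changed sign. With first-intron peaks in repeats counted too, the share of the list was 11.6% and 11.7% in GCN2 KO cells (without leucine and complete medium) and 12.3% and 12.7% in WT cells. In the higher-scoring 50% of each list, recurrence in any other list was 31.1%, 36.8%, 24.7% and 46.8% in the same order. The shares overlapping the paired list were then 24.4% and 30.9% between the GCN2 KO lists (without leucine first), 18.3% and 41.3% between the WT lists, 26.1% and 17.9% between GCN2 KO and WT without leucine, and 27.2% and 30.2% between them in complete medium. With lists shortened to 2336 peaks, recurrence was 31.3% in GCN2 KO and 32.1% in WT cells without leucine, and 24.7% of the GCN2 KO peaks without leucine overlapped complete medium, 25.3% of the WT peaks without leucine overlapped complete medium, 25.8% of the GCN2 KO peaks overlapped WT without leucine and 22.6% of the WT peaks overlapped GCN2 KO without leucine. These alternatives keep only higher-scoring peaks, which recur more often. At equal length the complete-medium lists stood at 26.9% in GCN2 KO and 28.4% in WT cells, so within each genotype the order of the media was turned round. First minus later recurrence was 5.74 points in the full lists, 8.56 at equal length and 10 in the higher-scoring 50%, and first minus later score percentile was 2.62, 5.37 and 6.13, alternatives chosen after seeing the data. Reciprocal overlap of 50%, windows widened by 500 bp and peaks outside CpG islands moved 0 values. The same was true of distances limited to peaks whose nearest gene held the intron. This limit kept the deposited distances and left out the other peaks. For those, the distance to the gene that held the intron was not computed.

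No paired analysis was possible because each condition has 1 library and conditions share no numbered replicates. The within-list differences of first and later introns are paired by list, not by replicate. Leaving out a library was not run for the same reason. The main limits are the unknown depth, 1 library per condition, and tied scores.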
